A study of Mus musculus with 43 samples.

Results

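Mouse colon tumoroids were compared with mouse colon colonoids while both were cultured with 1 µM 5-fluorouracil (5-FU), using 6 RNA-seq libraries: 3 tumoroid lines (F11, M3 and M14) and 3 colonoid lines (M41, M40 and M1). Organoids are epithelial cultures grown from colon crypts in a gel. Colonoids came from Vil-cre/ERT2 mice with wild type Apc, and tumoroids from Vil-cre/ERT2 mice with floxed Apc. Mice of both genotypes were adult and received tamoxifen before the colon was taken, so the colonoids carry the same Cre driver and drug exposure as the tumoroids. The villin promoter confines this Cre to epithelium. Each line is from 1 mouse, F11 from a female and the other 5 from males, so 3 mice stand behind each group. All lines were kept in medium with Wnt3a, R-spondin 1, Noggin and EGF and were treated for 6 days. The same 6 lines in vehicle (Ve, DMSO) serve as the untreated background, and the same lines were also grown with regorafenib. The solvent of 5-FU is not given in the sources used here. The titles given to the 3 treated tumoroid samples call them colonoid, and they were placed here by their genotype label and by the name of their column.

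Apc is the scaffold of the complex that marks beta-catenin for destruction. When Apc is lost, beta-catenin stays with TCF/LEF factors on Wnt target genes, which in the intestine hold crypt cells in a stem-like, dividing state and away from the goblet, absorptive and endocrine fates. 5-FU is a pyrimidine analogue, long used against colorectal cancer, that blocks thymidylate synthase and enters RNA and DNA, and p53 target genes are its classical transcriptional readout.

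Values are CP20M, which are read counts per 20 M (mega) counted reads, rounded up. Of 52636 genes in the table, 10588 reached 200 CP20M in at least 2 of the 6 libraries with 5-FU and were tested. A gene could meet this filter through 1 group alone. Fold changes are tumoroid minus colonoid on the log2(CP20M + 20) scale, which understates the change of low genes. They are given with their standard error (SE) and the limma p adjusted over all genes tested. A gene was called at an adjusted p under 0.05 with a difference of at least 1.5-fold. In every list of values below, the colonoids are in the order M41, M40, M1 and the tumoroids in the order F11, M3, M14.

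The 6 libraries held about 11517144 to 20690654 counted reads. The 8 epithelial markers were all above the filter, and their summed level was 195069 to 262606 CP20M in colonoids and 146628 to 179563 in tumoroids. The 10 fibroblast markers summed to 21 to 68 CP20M in these libraries, with Dcn, Lum and Thy1 at 0 in all 6. Of 10 immune and vessel markers, Ptprc did not exceed 4 and Lyz2 was at 0. Csf1r and Cd68, markers of macrophages, were above 0. Csf1r stood at 384 to 448 in all 6 libraries, and Cd68 at 80, 32 and 96 in colonoids and 151, 305 and 201 in tumoroids. Mitochondrial genes took 0.501 to 0.618% of the values in colonoids and 0.658 to 0.847% in tumoroids. The part of these differences in the results was not tested. In such bulk samples, fewer cells of a type and less RNA per cell cannot be told apart.

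Which genes differ between tumoroids and colonoids when both face the same drug? Under 5-FU, 5 of 10588 genes were called, or 0.0472%, of which 1 was higher and 4 were lower in tumoroids. The gene that was higher is Hspg2. The genes that were lower are Kalrn, Cadps2, Serpinb1a and Gm4875. All 5 were also called in the same direction in vehicle. Kalrn, Cadps2 and Gm4875 passed the filter through colonoids alone. For Hspg2, M1 was the only colonoid that reached the filter level. The filter thus favoured the sign that these genes showed. Called genes were named only where the groups did not overlap, so their separation is no added evidence.

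Hspg2 encodes perlecan, a heparan sulfate proteoglycan of basement membranes. It lies on chromosome 4 from 137468769 to 137570630 (GRCm38). Its level was 110, 99 and 220 CP20M in colonoids and 2394, 1939 and 972 in tumoroids, or 143 ± 66.9 against 1768 ± 726 (SD, n = 3). Every tumoroid line was above every colonoid line. The log2 fold change was 3.43 with an SE of 0.44 (adjusted p = 0.0225). In vehicle, the level was 58, 40 and 150 in colonoids and 1453, 970 and 831 in tumoroids, with a log2 fold change of 3.54. With regorafenib, the lowest tumoroid library (562) still stood above the highest colonoid library (474).

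Kalrn encodes kalirin, a guanine nucleotide exchange factor (chromosome 16 from 33969073 to 34573532). It measured 454, 427 and 312 CP20M in colonoids and 43, 73 and 71 in tumoroids. Tumoroids were far below colonoids, by a log2 fold change of -2.35 with an SE of 0.27 (adjusted p = 0.0171). Cadps2, which encodes a protein that primes dense core vesicles for release, lies on chromosome 6 from 23262773 to 23839421. It measured 471, 483 and 397 in colonoids and 76, 63 and 95 in tumoroids (log2 fold change -2.27 with SE 0.30, adjusted p = 0.0239). In both genes the 3 values of each group lay close together and the groups did not overlap, which was a condition for naming them.

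Serpinb1a encodes an intracellular inhibitor of neutrophil serine proteases (chromosome 13 from 32842092 to 32851185). Its level was 1642, 2132 and 1837 CP20M in colonoids and 379, 668 and 582 in tumoroids. Its log2 fold change was -1.78 with an SE of 0.22 (adjusted p = 0.0182), so tumoroids were lower. Gm4875 is annotated as a processed pseudogene without a protein product (chromosome 6 from 117997207 to 117997992). It measured 530, 301 and 350 in colonoids and 2, 3 and 1 in tumoroids (log2 fold change -4.20 with SE 0.37, adjusted p = 0.00213). Reads of a processed pseudogene can also come from its parent gene, so its level is uncertain. It was at 6 or below in all 12 tumoroid libraries, whatever the treatment, and at 246 or above in all 12 colonoid libraries.

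The 5 calls depended on the libraries in the fit. With only the 6 libraries in 5-FU no gene was called, although 921 had an unadjusted p under 0.05, against 961 in the fit with vehicle. Leaving out colonoid M41 with 5-FU left 0 calls, leaving out colonoid M40 or tumoroid F11 with 5-FU left 1, which was Gm4875 each time, and leaving out colonoid M1 or tumoroid M3 left 3. With 2 in place of 20 added before the log, only Serpinb1a and Kalrn were called, so Gm4875, Hspg2 and Cadps2 were lost. With the line as a random block, 6 genes were called. Serpinb1a was lost (adjusted p = 0.0525), while B4galt4 (log2 fold change -3.52) and Sema3f (2.97), both named after their values were seen, were gained. Over 16 alternative fits, Cadps2 lost its call in 9, Serpinb1a in 7, Hspg2 in 6, Kalrn in 4 and Gm4875 in 3. Cadps2 was not called when any single 5-FU library was left out (smallest limma adjusted p = 0.0588).

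**Figure D1:**
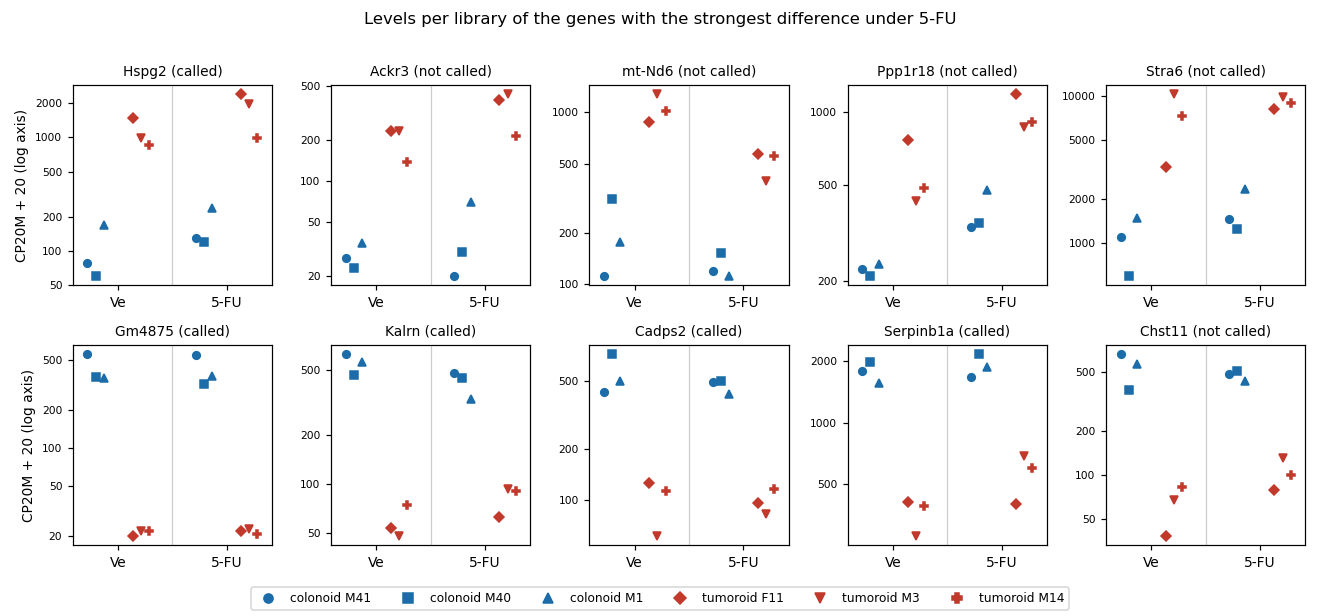
Level of 10 genes in each library, as CP20M + 20 on a log axis, for colonoids (blue) and tumoroids (red) in vehicle (Ve, left in each panel) and under 5-FU (right), where each symbol is 1 line. On the right of every panel the 3 tumoroid lines lie apart from the 3 colonoid lines, for example 43 to 73 CP20M against 312 to 454 for Kalrn.

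The genes next in order of the test did not pass and are given as values. Ackr3, a scavenging receptor for the chemokine CXCL12, stood at 0, 10 and 50 CP20M in colonoids and 376, 416 and 195 in tumoroids (log2 fold change 3.26, adjusted p = 0.0881). Stra6, the membrane receptor for retinol binding protein, stood at 1428, 1214 and 2295 and at 8134, 9813 and 8979 (2.48, adjusted p = 0.0881). Neither group of lines overlapped the other for these genes. Ppp1r18, which encodes phostensin, a protein that ties protein phosphatase 1 to actin, had a log2 fold change of 1.36 and mt-Nd6, a subunit of respiratory complex I, one of 1.98, both at the same adjusted p of 0.0881. mt-Nd6 lies opposite mt-Nd5 on the other strand, and the strand setting of the counting is not given in the sources used here. On the lower side, Chst11, a chondroitin sulfotransferase, measured 466, 493 and 413 in colonoids and 59, 110 and 79 in tumoroids (log2 fold change -2.24, adjusted p = 0.0521). Ackr3 and mt-Nd6 passed the filter through tumoroids alone, and Chst11 through colonoids alone.

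Apc itself was counted at 2848, 3901 and 1903 CP20M in colonoids and 4766, 3813 and 5092 in tumoroids under 5-FU. The groups overlapped and the difference was not called (log2 fold change 0.71, adjusted p = 0.501). Reads were summed over all exons of Apc, and a deletion of part of them need not lower that sum, so this value checks no label.

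How did Wnt target genes stand? Of 28 Wnt targets and feedback regulators, 17 passed the filter and none was called. The log2 fold change was above 0 in 16 of the 17, against 5408 of all 10588 genes tested. The median was 0.42, against 0.008 over all genes tested. Dkk2, like Mmp7 below, passed the filter through tumoroids alone, so the filter favoured a positive sign for both. In 4 of the 17, namely Mmp7, Znrf3, Axin2 and Rnf43, every tumoroid library was above every colonoid library, which held for 8.63% of all genes tested. Axin2, the scaffold whose transcription is the usual readout of the pathway, stood at 1475, 2249 and 2521 CP20M in colonoids and 4215, 10756 and 6290 in tumoroids (log2 fold change 1.69 with SE 0.35, adjusted p = 0.145). Mmp7, which encodes the protease matrilysin, stood at 13, 13 and 51 and at 219, 1173 and 348 (3.47 with SE 0.61, adjusted p = 0.105). Both separated the groups completely, with M3 at the top of each, and Mmp7 passed the filter through tumoroids alone. Znrf3, a ligase that removes Wnt receptors from the membrane, stood at 546, 684 and 692 in colonoids and 1390, 1460 and 1164 in tumoroids (1.04 with SE 0.20, adjusted p = 0.109).

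Among the 11 genes of this list below the filter, Notum, a secreted enzyme that inactivates Wnt ligands, averaged 12.3 CP20M in colonoids and 87.7 in tumoroids. Nkd1 and Lef1 did not exceed 12 and 17 in any of the 6 libraries with 5-FU. TCF/LEF factors bind the letters ATCAAAG, and a match was sought on either strand (CTTTGAT) in the 250 bases before RefSeq gene starts (GRCm38.p6). A match was found in 3.21% of 32851 windows and in 3 of 26 windows of this list, which has windows for 18 genes. The matching genes were Mmp7, Sp5 and Tnfrsf19. The window of Mmp7 lies within the gene as the annotation used for its position places it, so that match is not upstream of that start. Among the genes named above for the 5-FU comparison, 1 of 13 windows matched (7.69%), and it belongs to Stra6. The window of Sp5, a transcription factor induced by Wnt, lies at chr2:70474673-70474922 on the plus strand and is shown as the example of such a match, which is in capitals:
Sp5: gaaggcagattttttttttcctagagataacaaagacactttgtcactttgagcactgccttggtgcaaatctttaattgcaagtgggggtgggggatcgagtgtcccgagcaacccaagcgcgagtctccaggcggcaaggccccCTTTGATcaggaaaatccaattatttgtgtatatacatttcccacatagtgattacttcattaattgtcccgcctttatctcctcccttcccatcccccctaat
A match is a description of letters, not a binding site. Sp5 stood at 212, 208 and 153 CP20M in colonoids and at 181, 344 and 334 in tumoroids, so that the groups overlapped (log2 fold change 0.50, adjusted p = 0.656).

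Of 22 stem cell genes, 18 were tested and none was called (median log2 fold change 0.36). Every tumoroid library was above every colonoid library in 3 of the 18, namely Znrf3, Axin2 and Mex3a, and below in 1. Over all genes tested, these shares were 8.63% and 7.01%. Lgr5, the receptor for R-spondins that marks crypt base stem cells, ran from 176 to 589 CP20M in colonoids and stood at 1365, 366 and 651 in tumoroids. F11 and M14 exceeded all colonoids, and M3 lay within their range. Plce1, a phospholipase C, was the one member below all colonoids in every tumoroid line, at 359, 900 and 576 against 1159, 1423 and 1883 (log2 fold change -1.32 with SE 0.32, adjusted p = 0.221). Mex3a, an RNA binding protein of slow-cycling crypt cells, stood at 768, 1072 and 1091 in colonoids and 1423, 1590 and 2795 in tumoroids (0.92, adjusted p = 0.337).

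No gene of the lists for differentiated colon cells was called under 5-FU. Of 17 goblet cell genes, 9 passed the filter, and their median log2 fold change was -1.86. Clca1, Muc2, Tff3, Fcgbp and Agr2 passed the filter through colonoids alone, so their sign was set by the filter and the median is a description only. For Bcas1 and Creb3l1, F11 was the only tumoroid that reached the filter level, so the filter favoured a negative sign there too. In 2 of the 9, Clca1 and Sytl2, the tumoroids were below all colonoids, which held for 7.01% of all genes tested. Muc2, the gel-forming mucin of the colon, stood at 1072, 1644 and 10 CP20M in colonoids and 29, 14 and 7 in tumoroids (log2 fold change -3.41 with SE 1.52, adjusted p = 0.535). Tff3, a trefoil peptide of mucus, stood at 1305, 943 and 8 and at 113, 2 and 10 (-2.89, adjusted p = 0.594). Colonoid M1 was as low as the tumoroids in both. Clca1, a secreted mucus protease, was at 534, 1571 and 17 in colonoids and 12, 3 and 4 in tumoroids (-3.62 with SE 1.14, adjusted p = 0.337). The groups for Clca1 were kept apart only by the margin between 17 in M1 and 12 in F11.

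Of 20 genes of absorptive colonocytes, 11 were tested, with a median log2 fold change of -0.64 and 3 below all colonoids in every tumoroid, against 7.01% of all genes tested. Isx, Car2 and Dmbt1 had positive log2 fold changes. Car1, a carbonic anhydrase of surface colonocytes, measured 14422, 6551 and 6559 CP20M in colonoids and 2440, 2409 and 4165 in tumoroids (-1.55 with SE 0.47, adjusted p = 0.337). Lypd8, which keeps flagellated bacteria from the epithelium, measured 1596, 3927 and 533 and 432, 141 and 322 (-2.38, adjusted p = 0.343). Krt20, a keratin of differentiated surface cells, measured 240, 2860 and 244 and 19, 66 and 200 (-2.69, adjusted p = 0.467). For all 3 the highest tumoroid lay below the lowest colonoid, although the spread within colonoids was wide for Krt20, where M40 stood alone. Cdhr5, a brush border cadherin, overlapped between groups at 996, 976 and 337 against 474, 186 and 157. Of the tumoroids, only M14 reached the filter level for Krt20 and only F11 for Cdhr5. The filter thus favoured a negative sign for both genes, and the median of the list is a description only.

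Endocrine genes were mostly too low to test, with 3 of 21 above the filter, of which Chgb and Reg4 passed through colonoids alone. Chgb, a granin of secretory granules, stood at 209, 391 and 14 CP20M in colonoids and 7, 0 and 3 in tumoroids (-2.67, adjusted p = 0.499). Cpe, the carboxypeptidase that trims prohormones, overlapped at 1678, 6771 and 637 against 779, 375 and 1131. As with the goblet genes, M1 stood nearest to the tumoroids among the colonoids. Of 11 tuft cell genes 3 were tested, and Ptgs1, a prostaglandin synthase, ran from 63 to 271 CP20M in colonoids and from 281 to 627 in tumoroids (1.71, adjusted p = 0.501). The other tested members, Trpm5 and Avil, passed the filter through tumoroids alone, and M1 was the only colonoid above it for Ptgs1. The filter thus favoured a positive sign in this list. The defining tuft genes Dclk1 and Pou2f3 stayed at or below 61 and 4.

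The membrane mucins differed from each other in direction. Muc3, of the brush border, measured 301, 1064 and 56 CP20M in colonoids and 18, 5 and 10 in tumoroids (-3.29 with SE 0.78, adjusted p = 0.217). Muc20 measured 27, 32 and 78 and 304, 341 and 115 (2.01 with SE 0.48, adjusted p = 0.217). The groups did not overlap in either gene, and each passed the filter through 1 group alone. Of 7 such mucins 4 were tested and none was called.

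**Figure D2:**
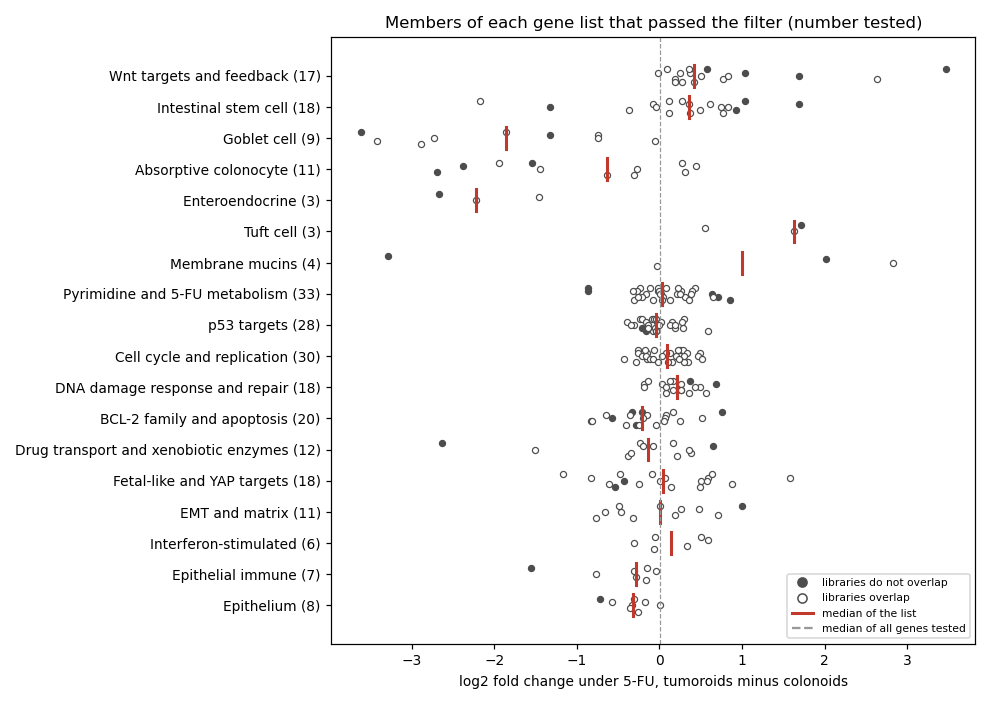
Log2 fold change under 5-FU (tumoroids minus colonoids, x axis) of each list member that passed the filter, with lists on the y axis and the number tested in brackets. Filled points are genes whose 3 tumoroid libraries do not overlap the 3 colonoid libraries. The red bar is the median of a list, which ran from -2.22 for 3 endocrine genes to 1.63 for 3 tuft cell genes, and the dashed line is the median of all 10588 genes, 0.008. Most tested members of these lists passed the filter through 1 group alone, colonoids for endocrine and tumoroids for tuft cell genes, so both medians are a description only.

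Do tumoroids and colonoids differ in the genes that handle 5-FU or respond to it? Of 40 genes of pyrimidine and 5-FU metabolism, 33 were tested, none was called, and their median log2 fold change was 0.03. Tyms, the thymidylate synthase that 5-FU inhibits, stood at 629, 446 and 328 CP20M in colonoids and 1286, 233 and 289 in tumoroids (-0.01 with SE 0.54, adjusted p = 0.995). F11 was above and both other tumoroid lines were below all colonoids. Dpyd and Dpys, which degrade 5-FU, were at or below 7 and 1 in all 6 libraries. Cmpk1, the kinase that phosphorylates UMP and CMP, was the member with the strongest statistic, at 4474, 3765 and 3097 in colonoids and 2262, 1957 and 1924 in tumoroids (-0.87 with SE 0.17, adjusted p = 0.117).

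Also in this list, Ggh, the hydrolase that removes glutamates from folates, measured 579, 609 and 765 CP20M in colonoids and 374, 262 and 416 in tumoroids (-0.87, adjusted p = 0.35). Uck2, a uridine and cytidine kinase that can activate fluorouridine, measured 4467, 3943 and 5426 and 6806, 7453 and 7070 (0.63 with SE 0.21, adjusted p = 0.363). Shmt2, the mitochondrial serine hydroxymethyltransferase, measured 1496, 1295 and 1437 and 3188, 1809 and 2167 (0.71, adjusted p = 0.377). In all 3 the groups did not overlap, and with Cad and Cmpk1 this list held 3 members above and 2 below among its 33, shares near the 8.63% and 7.01% of all genes tested.

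Of 30 p53 genes, 28 were tested. None was called in limma, 0 had an unadjusted p under 0.05, and the median was -0.05. In 2 of them, Rrm2b and Polk, every tumoroid library was below every colonoid library, a share near the 7.01% of all genes tested. Cdkn1a, which encodes the cell cycle inhibitor p21, stood at 7405, 5170 and 10747 CP20M in colonoids and 6201, 8648 and 6948 in tumoroids (-0.05 with SE 0.23, adjusted p = 0.967). Mdm2, the ligase that degrades p53, stood at 7195, 3916 and 7586 and 4288, 4605 and 4756 (-0.39 with SE 0.25, adjusted p = 0.643). Trp53 itself had a log2 fold change of 0.29 with an SE of 0.14 (adjusted p = 0.563). In colonoids M40 was the lowest of the 3 for both targets.

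Of 32 cell cycle and replication genes, 30 were tested. In none did the groups separate, against 8.63% (tumoroids above) and 7.01% (tumoroids below) of all genes tested. Mki67, a marker of dividing cells, stood at 1496, 2429 and 935 CP20M in colonoids and 8861, 557 and 576 in tumoroids. F11 was thus far above the rest, and M3 and M14 were below all colonoids (log2 fold change -0.07 with SE 1.40, adjusted p = 0.992). Of 24 DNA repair genes, 18 were tested with a median of 0.21, and Trp53bp1, a double strand break adaptor, was the closest to a call (0.37, adjusted p = 0.424).

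Of 23 apoptosis genes 20 were tested, none was called, and the median was -0.21. In 5 of the 20 every tumoroid line lay below all colonoids and in 1 above, against 7.01% and 8.63% of all genes tested. Bcl2, an inhibitor of mitochondrial apoptosis, stood at 655, 876 and 606 CP20M in colonoids and 497, 415 and 486 in tumoroids (-0.58 with SE 0.20, adjusted p = 0.386). Xiap, an inhibitor of caspases, stood at 4814, 4288 and 4592 and 3700, 3658 and 3463 (-0.34, adjusted p = 0.337). Bad, a promoter of apoptosis, met at 577 in both groups, with a log2 fold change of -0.65 (adjusted p = 0.337). Among 21 drug transport and xenobiotic genes 12 were tested. Abcb1a, an efflux pump, stood at 1581, 2462 and 478 and 280, 77 and 268 (-2.63 with SE 0.75, adjusted p = 0.308), again with M1 the lowest colonoid.

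Of 20 fetal-like and YAP genes 18 were tested (median 0.04). In 2 of the 18, Tnfrsf12a and Clu, every tumoroid library was below every colonoid library, and in 0 above. These shares were 7.01% and 8.63% of all genes tested. Il1rn had the strongest statistic, at 8727, 6470 and 3599 CP20M in colonoids and 3830, 1608 and 2837 in tumoroids (-1.17, adjusted p = 0.503). Il33, an alarmin, overlapped at 916, 385 and 2666 CP20M in colonoids and 4334, 4947 and 1229 in tumoroids. Clu, which marks regenerating crypt cells, stood at 53517, 78010 and 62099 and 33343, 48513 and 52949 (-0.53, adjusted p = 0.634). Of 20 matrix and EMT genes 11 were tested (median 0.01), and Gpc1, a glypican, had the strongest statistic (1.00 with SE 0.26, adjusted p = 0.258). The medians were 0.14 for 6 interferon genes and -0.28 for 7 epithelial immune genes, where Il18 measured 3279, 1895 and 2082 in colonoids and 752, 508 and 1266 in tumoroids (-1.55 with SE 0.33, adjusted p = 0.156). Of 17 genes that were picked earlier for genotype on the vehicle libraries of these lines, and that are therefore no independent evidence, all were tested and only Gm4875 was called. Homer2, a postsynaptic scaffold protein in that list, stood at 1676, 1719 and 1497 and 918, 471 and 813 (-1.18 with SE 0.21, adjusted p = 0.105).

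Is the difference between genotypes under 5-FU another one than in vehicle? In vehicle, 222 of the same 10588 genes were called, or 2.1%, with 111 higher and 111 lower. The median size of the log2 difference was 0.259 in vehicle and 0.185 under 5-FU. In the vehicle libraries, the Wnt genes Znrf3, Axin2 and Tcf7 were called higher. Znrf3 and Axin2 are also in the stem cell list, whose other call was Plce1, which was lower. The goblet genes Clca1 and Sytl2 and the absorptive genes Car1, Lypd8 and Cdhr5 were called lower. In the pyrimidine list Uck2, Shmt2 and Dctd were called higher and Cmpk1 lower. A count of calls that is smaller under 5-FU is not a difference between treatments. The difference of the 2 differences was tested gene by gene: 0 of 10588 genes passed in limma, with 123 at an unadjusted p under 0.05. The treated and untreated libraries come from the same mice, and their deviations from the group means correlated at 0.64 to 0.86 within a line. The first fit leaves this pairing out, so it is conservative for the difference of differences, and its count of 0 is not evidence of no difference. No gene passed with the line as a random block. With the line as a fixed block, 2 genes passed, and 824 had an unadjusted p under 0.05.

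These 2 were Rhoc and Agr2, named after their values were seen. Rhoc, a small GTPase, went from 2698 to 1692, 3768 to 3310 and 2017 to 1795 CP20M in colonoids between vehicle and 5-FU. In tumoroids it went from 187 to 567, 384 to 1173 and 841 to 2041. All 3 colonoid lines moved down and all 3 tumoroid lines moved up (difference of differences 1.78 with SE 0.18, adjusted p = 0.0208 with the block). Agr2, a disulfide isomerase needed for mucin folding in goblet cells, went from 2747 to 745, 2550 to 862 and 245 to 68 in colonoids. In tumoroids it went from 121 to 147, 27 to 49 and 84 to 88 (1.95 with SE 0.23, adjusted p = 0.0417 with the block). The log2 scale used here understates changes at such low tumoroid levels, so the size of the Agr2 difference is uncertain. Without the block the unadjusted p was 0.0396 for Rhoc and 0.198 for Agr2.

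The 5 genes with the smallest p without the block were Tspan8, Map3k20, Sesn2, Gm37352 and Hoxa13, none of which passed (adjusted p = 0.192 or above in every fit). Sesn2, a stress sensor that p53 induces, was at 1287, 1044 and 1413 CP20M in colonoids in vehicle and at 2142, 1460 and 2085 under 5-FU, while in tumoroids it was at 1870, 2001 and 2190 and then at 1756, 1819 and 1711. The genotypes were apart in vehicle and overlapped under 5-FU (difference of differences -0.78). Map3k20, a kinase of the ribotoxic stress response, had the same course, from 2817, 3142 and 3242 to 4347, 5396 and 5552 in colonoids and from 4932, 6422 and 4748 to 4748, 5850 and 5321 in tumoroids. Hoxa13, a transcription factor of the hindgut, overlapped in vehicle and stood at 1126, 1086 and 992 in colonoids and 1966, 1691 and 2189 in tumoroids under 5-FU (difference of differences 0.82). Tspan8, a tetraspanin of epithelial membranes, had a difference of differences of 0.66, and Gm37352, a gene model of unknown product, one of 1.21.

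**Figure D3:**
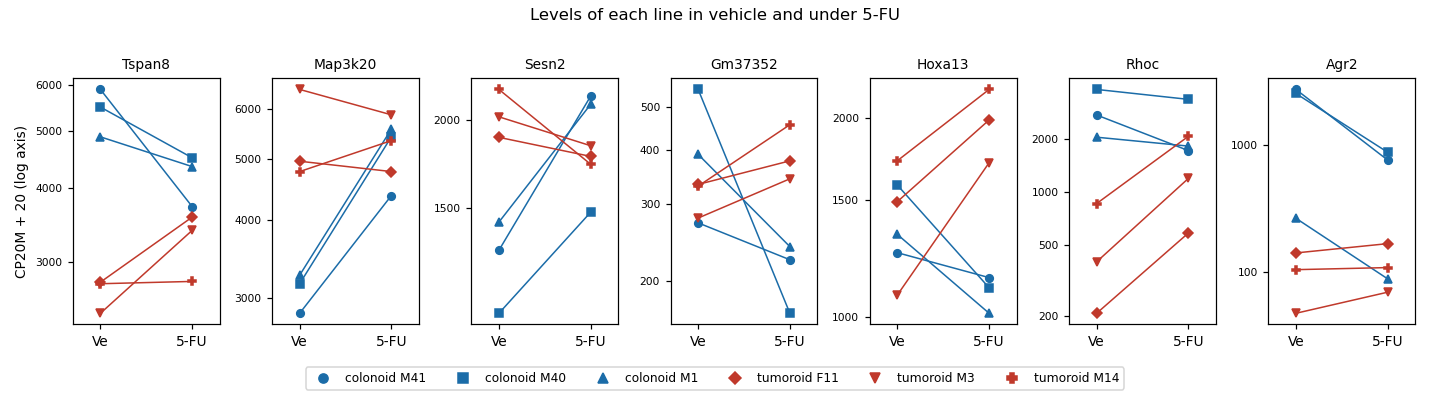
Level of 7 genes in each line in vehicle and under 5-FU (x axis), as CP20M + 20 on a log axis, with a line joining the 2 libraries of 1 organoid line, colonoids in blue and tumoroids in red. For Rhoc the 3 blue lines fall and the 3 red lines climb, while for Sesn2 the colonoids start between 1044 and 1413 CP20M and end between 1460 and 2142.

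The fold changes of several named genes are set side by side here, without a call of their difference. Kalrn had a log2 fold change of -3.24 in vehicle and -2.35 under 5-FU, Clca1 -6.24 and -3.62, Uck2 1.11 and 0.63, and Shmt2 1.27 and 0.71. Mmp7 had 2.29 in vehicle and 3.47 under 5-FU, and Muc20 1.31 and 2.01. The 9 goblet genes had a median of -3.81 in vehicle and -1.86 under 5-FU. From vehicle to 5-FU, the median log2 change of these 9 genes was -1.44 in colonoids and 0.08 in tumoroids. In vehicle, however, tumoroids already stood at 15, 13 and 3 CP20M for Clca1 and 41, 1 and 10 for Muc2. At such levels the constant added before the log hides most of a further fall. Sytl2 (320, 173 and 330) and Galnt12 (593, 237 and 315) stood higher, with tumoroid changes of 0.30 and -0.18. Whether goblet genes of tumoroids respond less to 5-FU was thus not tested.

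**Figure D4:**
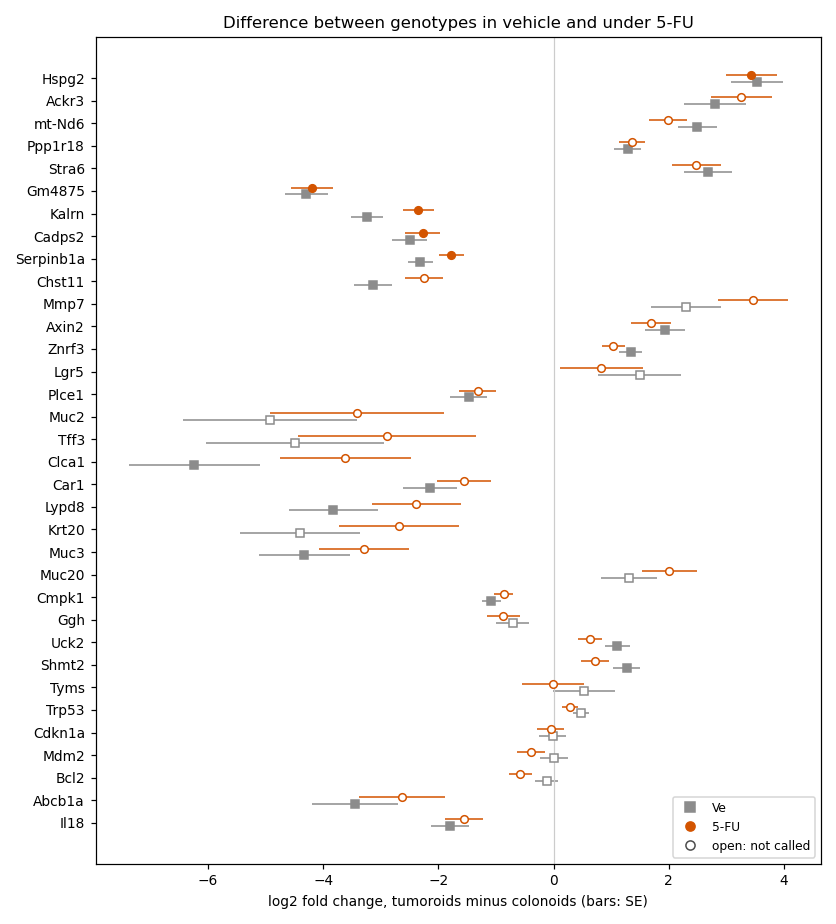
Log2 fold change between tumoroids and colonoids (x axis, bars are SE) of 34 named genes (y axis) in vehicle (grey squares) and under 5-FU (orange circles), where filled symbols were called and open symbols were not. Filled orange circles stand only at Hspg2 (3.43), Gm4875 (-4.20), Kalrn (-2.35), Cadps2 (-2.27) and Serpinb1a (-1.78).

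How far did the lines of a group differ among themselves? Under 5-FU, F11 lay more than 1 log2 unit above both other tumoroid lines in 421 genes and below both in 164. The other 5 lines did so, against the other lines of their group, in 62 to 95 genes above and 45 to 161 below. The distance of F11 held across treatments, with 430 genes on the same side in vehicle and 5-FU. The mean log2 level of the 30 replication genes was 10.93 in F11 against 8.48 and 8.34 in M3 and M14, and 9.50, 9.20 and 8.84 in the colonoids. F11 is also the line from a female mouse, with Xist at 11984 CP20M and 4 Y-linked genes at 0. Sex and this line cannot be told apart. Colonoid M1 stood apart in the goblet genes, with a mean log2 level of 6.52 over the 9 tested, against 9.22 in M41 and 9.96 in M40. The tumoroids were at 7.46, 6.14 and 6.31.

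**Figure D5:**
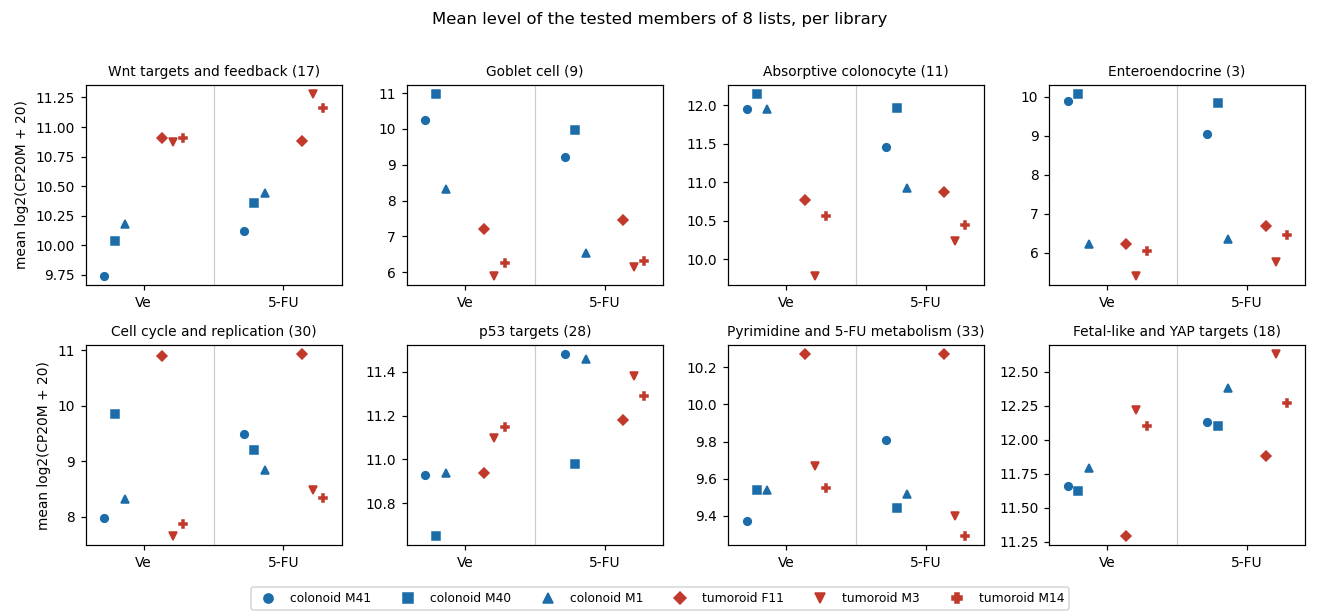
Mean log2(CP20M + 20) of the tested members of 8 gene lists in each library (y axis), in vehicle (Ve) and under 5-FU, for colonoids (blue) and tumoroids (red), where each symbol is 1 line. In the panel of replication genes F11 stands alone at 10.93 under 5-FU, and in the goblet panel colonoid M1 stands with the tumoroids at 6.52.

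Without both libraries of F11, 31 genes were called under 5-FU, 15 higher and 16 lower, and these held all 5 genes called before. Axin2 (log2 fold change 2.01, adjusted p = 0.0452), Mmp7 (3.96, 0.0452) and Dkk2, a secreted Wnt antagonist (3.95, 0.0125), were among the 15. Without both libraries of M1, 30 genes were called, 15 each way, of which 4 were among the 5. Muc2 (-5.24, adjusted p = 0.00353), Clca1 (-5.17, 0.00268) and Muc3 (-4.27, 0.0353) were among the 15 lower genes. Both lines were left out after their values were seen, and M1 for its low goblet genes, so these counts are a description of the remaining lines. When only the 5-FU library of F11 was left out and its vehicle library was kept, 1 gene was called.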

How the data were processed

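Organoid RNA was sequenced as paired reads by the authors. Per the labels, reads were trimmed with Trimmomatic 0.36, aligned to GRCm38 with STAR 2.5.3a and counted per gene with HTSeq 0.9.1. The deposited values are a signal: counts per 20 M (mega) counted reads, rounded up by the authors (CP20M), from which the depth was estimated from the step between low values. The labels and the methods name different library kits. The table has 24 organoid libraries, each matched to its sample by name. The fibroblast table was not used here.

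limma 3.58.1 in R 4.3.3 was fitted (lmFit, contrasts.fit, eBayes with trend) to log2(CP20M + 20) of 12 libraries, the 3 colonoid and 3 tumoroid lines in vehicle and in 5-FU, with 1 coefficient per group and 8 residual degrees of freedom. Tests were two-sided, with Benjamini-Hochberg adjustment over 10588 genes. Vehicle libraries add to the estimate of the spread. They come from the same mice as the libraries in 5-FU and are not independent replicates. The 8 residual degrees of freedom count each mouse in both treatments, so the genotype tests can be too liberal. The scripts were tested on simulated data. A count model was not used, since the values are not whole reads. Lines pair treatments because they come from the same mouse; the correlation within a line was 0.64 to 0.86. The replicate numbers pair nothing across genotypes. Named genes were up to 12 called and separated genes each way, filled to 5 by the moderated statistic, up to 4 members per list by the same statistic plus its defining genes, the 5 smallest p for the difference of differences, and Apc. Gene models without a product were to be counted only, so Gm4875 and Gm37352, like Rnf43, Rrm2b, Polk, Sp5 and Notum, were named after their values were seen. The members and lists were chosen with earlier results of these data known. Genes were placed by the GENCODE annotation of GRCm38, and promoter windows are from RefSeq (GRCm38.p6), with chromosome 18 left out. No 2 libraries in 5-FU were copies: at most 0.349% of the tested genes had equal values in any pair.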

Additional observations from a re-analysis of the deposited data

Results flagged for a closer look

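Rhoc and Agr2 moved differently between vehicle and 5-FU in tumoroids and colonoids, by a test of the difference itself with the line as a fixed block. The difference of differences was 1.78 for Rhoc and 1.95 for Agr2. In both genes 3 of 3 tumoroid lines went up and 3 of 3 colonoid lines went down. Neither passed without the block. Agr2 was already low in tumoroids in vehicle (121, 27 and 84, against 2747, 2550 and 245 in colonoids). Under 5-FU the tumoroids stood at 147, 49 and 88. The log2 scale used here understates changes at such low levels, so the size of the difference is uncertain. Whether Agr2 responds less to 5-FU in tumoroids, apart from this lower start, was not tested.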

How the results depend on the processing

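The count of 5 genes called under 5-FU was 0 with only the 6 libraries in 5-FU, 12 with all 24 organoid libraries, 2 with a pseudocount of 2, 9 without the filter on low values, 11 after quantile normalization and 1 at an adjusted p under 0.01 with a log2 fold change of 1. It was 31 without line F11 and 30 without line M1, both chosen after seeing the data, and 0 to 4 when each 5-FU library was left out in turn. It stayed between 5 and 7 with the line as a random replicate block (6), a pseudocount of 100 (7) and TMM scaling (5). The vehicle count of 222 was 10 with only the 6 vehicle libraries, 107 without the filter, 8 under the stricter rule and 9 to 297 when each vehicle library was left out, the last 2 chosen after seeing the data. The count of 0 for the difference of differences was 2 with the line as a fixed replicate block and 0 in every other fit run. The cause was not tested. Of 54 gene results under 16 alternatives each, 3 changed sign, and none of them was called. Cdkn1a was 0.0088 after quantile normalization, 0.22 without line M1, 0.0593 without line F11, and -0.31 to 0.22 when each 5-FU library was left out. Tyms was 0.0252 with a pseudocount of 100 and -0.76 to 0.43 when each was left out. Mki67 was -1.38 to 0.59 likewise. The edgeR and DESeq2 fits were not run, because the values are not whole reads. With 3 lines a group, an exact permutation test of 1 gene cannot go below p = 0.1.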
